A study of Mus musculus with 16 samples.

Results

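An EpiSC-like induced pluripotent stem (iPS) line of the non-obese diabetic (NOD) mouse, numbered 6 in the labels, was compared with epiblast stem cells (EpiSC). The titles of the EpiSC arrays do not name NOD. The comparison rests on 4 of the 16 arrays of the series, chosen by title: the iPS line at passages 7 and 12 and EpiSC at passages 12 and 20. A further NOD line called EpiSC-like, derived as ES cells (line 1, 4 arrays), was not part of the comparison and is used only to show which differences were larger in the iPS line. Total RNA of mechanically separated colonies was labelled with Cy3 and hybridised to one-colour Agilent mouse arrays. The iPS arrays come from 1 line, and whether both EpiSC arrays come from 1 line, which strain EpiSC came from, how the iPS line was made and what medium each culture had were not stated in the labels read for this comparison. Strain, as far as the titles name it, and reprogrammed against embryo origin differ together between the groups and cannot be told apart. Nothing in the labels says that the arrays of either group came from separate cultures. The p-values measure the spread between arrays of a group, pooled over the groups of the series, which may be technical.

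EpiSC are cultures of the post-implantation epiblast and stand for the primed state of pluripotency. They keep the factors Oct4 (gene Pou5f1), Sox2 and Nanog at work, depend on FGF and on Activin or Nodal signalling through SMAD2/3, and express epiblast genes such as Fgf5, Otx2 and Dnmt3b. Naive ES cells of the inner cell mass depend on LIF and STAT3 and express Klf2, Esrrb, Zfp42 and Dppa3 in their place.

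Between 55.9% and 71.7% of the gene spots of the 4 arrays were well above background. The iPS arrays were dimmer, with a 75th percentile of the processed signal of 329 and 189 against 629 and 703 for EpiSC. Values below are log2 of the signal relative to that percentile of the array, given in the order iPS passage 7, iPS passage 12, EpiSC passage 12, EpiSC passage 20. Over genes well above background on both arrays of a pair, the iPS arrays differed from each other with a standard deviation (SD) of 0.606, the EpiSC arrays with 0.425, and arrays of different groups with 1.13 to 1.42. Of the other 15 arrays, the nearest to each of the 4 was the second array of its own group. The next nearest was an array of the EpiSC-like ES line. From both EpiSC arrays iPS passage 7 ranked 6. The rank of iPS passage 12 was 11 from EpiSC passage 12 and 15, the farthest, from EpiSC passage 20. That last SD was 1.42, against 1.22 to 1.38 for the ES arrays not called EpiSC-like. Seen from iPS passage 7 the EpiSC arrays ranked 6 and 7, and from iPS passage 12 they ranked 7 and 9.

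Of 23192 genes tested, 6141 (26.5%) were called different at a limma adjusted p under 0.05, with 3385 (14.6%) higher and 2756 (11.9%) lower in the iPS line. The arrays of the groups did not overlap for 47.5% of all genes with the iPS line higher and for 28.9% with it lower. Changes over 4-fold numbered 1079 upward and 831 downward, and changes over 16-fold 152 and 56. The standard errors (SE) pool the spread of all 7 groups of the series, and each group mean is over 2 arrays. The count fell to 2548 without iPS passage 12, to 2957 without EpiSC passage 12 and to 2471 without EpiSC passage 20. Passage 7 of the iPS line and passage 12 of EpiSC shared a slide. With slide as a block, which leaves iPS passage 12, alone on its slide, without weight, 1601 genes were higher and 1415 lower.

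The median difference over all genes was 0.40, and it was 0.15 over the 15111 genes well above background on all 4 arrays, so differences are read against these values. The split between higher and lower calls moved with the scaling. Of the called genes, 55.1% were higher in the iPS line with the 75th percentile, 42.3% with quantile normalization, 42.8% in the deposited value table and 30.8% with arrays centred on their median. The direction of the 6141 called genes was the same with quantile normalization for 6137. With local background subtraction it was the same for 6041 and with the mean over probes for 5968. With the normexp background correction, whose fit is described in the closing section, it was the same for 4752. With median centring it was the same for 6141. That setting moves the differences by a common amount, the median going from 0.40 to -0.02, so this count was nearly fixed in advance.

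**Figure D1:**
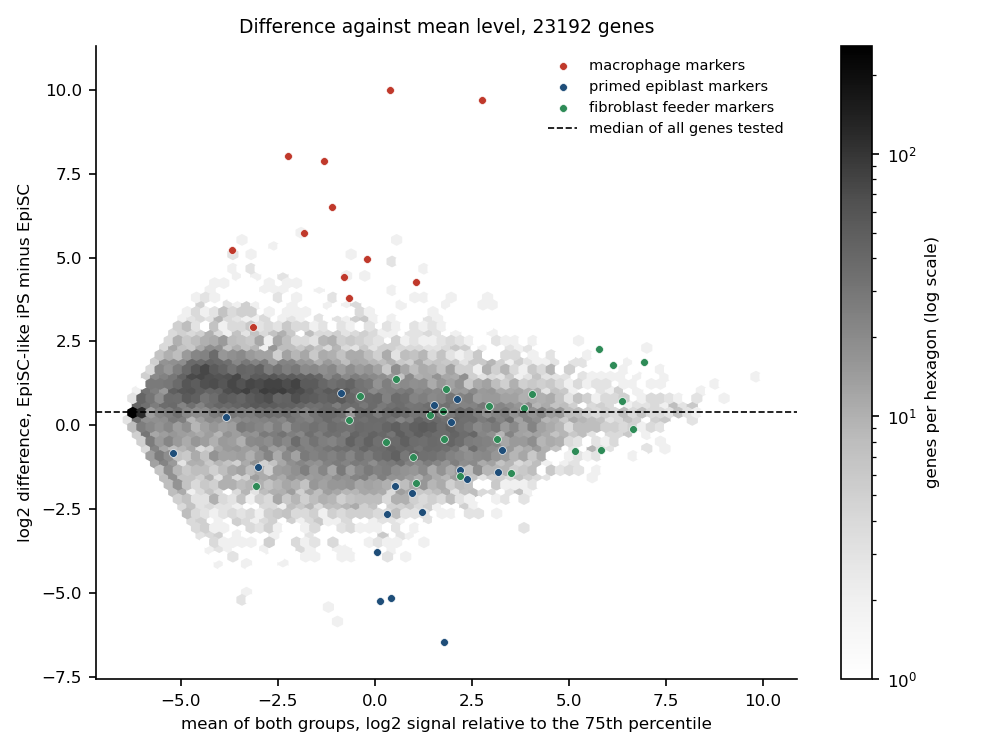
The log2 difference between the iPS line and EpiSC (y axis) is plotted against the mean log2 level of both groups (x axis) for 23192 genes, with darker hexagons holding more genes. Macrophage markers (red) lie above the other genes and the lowest primed epiblast markers (blue) below them, while fibroblast markers (green) lie on both sides of the dashed median of 0.40.

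The label EpiSC-like was first set against the marker genes. In the pluripotency core, 6 of 11 tested genes fell in the iPS line and 0 rose, against 11.9% and 14.6% of all genes. The median difference was -2.22. Pou5f1 read -4.34, -3.32, 0.96 and 0.35, a log2 difference of -4.49 (SE 0.79, limma adjusted p = 0.0022), and on the passage 7 array it was not well above background. Both iPS arrays lay more than 3 log2 units below both EpiSC arrays for the factor that defines pluripotent cells. Sox2, its DNA-binding partner, read 0.06, 0.07, 2.29 and 2.45, a difference of -2.31 (SE 0.68, adjusted p = 0.030). Lin28b, which blocks maturation of let-7 microRNAs, read -3.74, -3.91, 0.68 and 1.21 and fell by 4.77 on the log2 scale (SE 0.27, adjusted p = 3.4e-06). Its paralogue Lin28a fell by 2.22. The zinc finger factor Sall4 fell by 2.74, although its second probe differed by 1.24 in the other direction.

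Nanog read -2.49, -2.28, -0.73 and -0.40. The groups did not overlap, but the difference of -1.82 (SE 1.01) did not pass the test (adjusted p = 0.19). Tdgf1, the Nodal co-receptor Cripto, differed by -1.31 and Zfp281 by -0.99, and neither passed. Utf1 and Foxd3 differed by 0.95 and -0.07, with overlapping groups for Foxd3. The list's median was -2.20 with slide as a block, with 3 of 11 genes still called, and -2.23 within the shared slide. Pou5f1, Sox2, both Lin28 genes and Sall4 thus went against the label, and the line is called the iPS line below. Fewer cells of a type and less RNA per cell cannot be told apart in these bulk RNA samples.

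Among 8 reprogramming factors, 6 fell and 0 rose, against 11.9% and 14.6% of all genes, with a median of -2.26. Beside Pou5f1, Sox2 and Lin28a these were the 3 Myc genes. Mycl fell by 3.14, Mycn by 2.44 and Myc by 1.30, which read -0.29, -0.42, 0.74 and 1.14. A second Myc probe differed by 0.47 in the other direction. Klf4 read 4.80, 4.78, 5.56 and 5.70, and its difference of -0.84 did not pass (adjusted p = 0.45). Whether any of these probes also detects a transgene was not tested.

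Naive ES markers did not take the place of the core. Of 19 tested, 2 rose and 2 fell, shares below the 14.6% and 11.9% of all genes, and the median was 0.35. The counts were 3 and 1 without iPS passage 7, 0 and 2 without iPS passage 12, 1 and 2 without EpiSC passage 12, and 0 and 1 without EpiSC passage 20. Nr0b1, Dppa3, Dppa4, Zfp42 and Pecam1 were not well above background on any of the 4 arrays, so they have no fold. Esrrb read -4.67, -5.47, -5.39 and -4.41, against a mean of 3.82 in 129 ES cells labelled mESM. Klf2 read 7.63, 8.68, 6.96 and 6.64 and rose by 1.35 (adjusted p = 0.044), while its second probe differed by -3.12. Dppa2 rose by 1.49. The pair that fell was Gdf3, at least 2.75-fold lower, and Gbx2, at least 1.96-fold lower, neither well above background in the iPS line.

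Genes of the primed epiblast were lower as well. Of 19 tested, 9 fell and 0 rose, against 11.9% and 14.6% of all genes. The median was -1.40, and it was -1.57 with slide as a block and -1.56 within the shared slide. Fgf5, the growth factor that marks the epiblast, read -2.19, -2.12, 3.02 and 3.00, a difference of -5.17 (SE 0.39, limma adjusted p = 1.5e-05). Dnmt3b, the de novo DNA methyltransferase of the epiblast, read -2.41, -2.55, 2.68 and 2.84, a difference of -5.24 (SE 0.36, adjusted p = 9.4e-06). For both genes the iPS arrays lay far below the EpiSC arrays, and the arrays of a group lay close together. Otx2, a homeobox factor of the primed state, read -0.07, -0.12, 2.47 and 2.55 and fell by 2.60. Sall2, Sox11 and Pou3f1 fell by 1.83, 1.60 and 1.40.

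Not all primed markers were low. Cldn6, Fst and Meis1 differed by 0.60, 0.77 and 0.96, and Dnmt3a by 0.09, none past the test. Sox4 read 2.92, 2.88, 3.70 and 3.58 and Meis2 1.46, 1.62, 2.83 and 2.92, with differences of -0.75 and -1.34 that did not pass. N-cadherin (Cdh2) differed by -2.02 (adjusted p = 0.063).

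**Figure D2:**
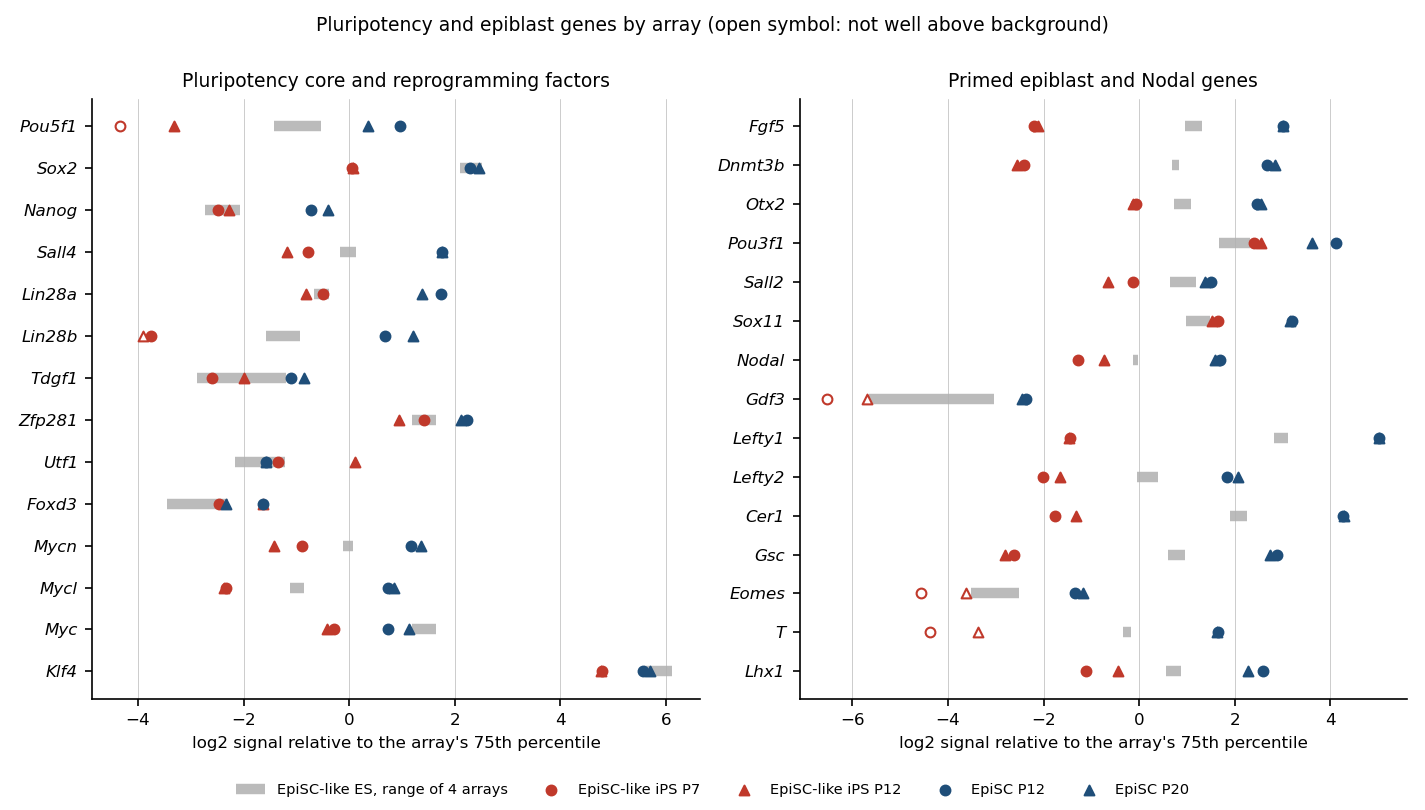
Log2 signal relative to the array's 75th percentile (x axis) is shown for single genes, with red symbols for the iPS line, blue symbols for EpiSC, circles and triangles for its 2 arrays, and a grey bar for the range of the 4 EpiSC-like ES arrays. For Fgf5, Dnmt3b, Lefty1 and Cer1 the iPS arrays lie over 5 log2 units below the EpiSC arrays, and the grey bars lie between them.

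Nodal is a TGF-beta family ligand that binds activin receptors together with Cripto, and its SMAD2/3 targets include its own antagonists. Of 10 antagonists and targets, 6 fell and 0 rose, against 11.9% and 14.6% of all genes. Their median of -2.47 was the lowest of the 42 lists. Lefty1, a secreted inhibitor of Nodal, read -1.44, -1.47, 5.02 and 5.03, a difference of -6.48 (SE 0.91, limma adjusted p = 0.00060). Lefty2 fell by 3.79 and Cer1, a further secreted antagonist, by 5.82 (SE 1.18, adjusted p = 0.0049). The organiser factor Gsc read -2.61, -2.80, 2.88 and 2.75 and fell by 5.52 (SE 0.44, adjusted p = 1.9e-05). Eomes was not well above background on either iPS array and was at least 6.10-fold lower (adjusted p = 0.0016). The SMAD co-repressor Skil fell by 2.09. Smad7 differed by -0.06 with overlapping groups, and Mixl1, dim on 3 of the 4 arrays, did not pass. With slide as a block 6 of the 10 were still lower.

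Among the 7 ligands and co-receptors 2 fell and 2 rose, against 11.9% and 14.6% of all genes. Nodal read -1.27, -0.73, 1.69 and 1.59 and fell by 2.64 (SE 0.45, adjusted p = 0.0018), as did Gdf3. Gdf1 and the activin subunit gene Inhbb rose by 1.79 and 1.40, but the higher count was 1 without iPS passage 7, and 0 without any other of the 4 arrays or with slide as a block. Inhba, which encodes the activin A subunit, read 2.21, 2.06, 3.02 and 3.08, and its difference of -0.92 did not pass, nor did that of Cfc1 (-0.75). Of 8 receptors and transducers, 3 fell and 0 rose, against 11.9% and 14.6% of all genes. Smad3 fell by 1.97 and the type II receptors Acvr2b and Acvr2a by 1.36 and 1.20. These 3 calls became 4 without iPS passage 7 and 0 without any other of the 4 arrays. Smad2 (-0.60), Smad4 (-0.13), Acvr1b (0.51), Acvr1c (1.08) and Foxh1 (0.95) did not pass.

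FGF acts through the ERK kinases, which switch on immediate early genes and their own feedback phosphatases. Of 17 such genes 12 fell and 0 rose, against 11.9% and 14.6% of all genes. The median was -2.04, and it was -1.97 with slide as a block (7 of 17 called) and -1.88 within the shared slide. Egr1 read 0.56, 0.08, 5.61 and 5.64, a difference of -5.30 (SE 0.29, limma adjusted p = 3.3e-06). Egr2, a factor of the same family, read -3.41, -3.21, 2.81 and 2.93, a difference of -6.18 (SE 0.28, adjusted p = 1.3e-06). Both Egr genes were lower on both iPS arrays than on any EpiSC array by over 5 log2 units. Fos and Jun, the subunits of AP-1, fell by 3.51 and 3.19, and the ERK phosphatase gene Dusp4 by 3.14. These genes were not low in the EpiSC-like ES line: its 4 arrays read 5.63 to 6.37 for Egr1 and 3.05 to 3.21 for Egr2, and 12 of the 17 genes were lower in the iPS line than in the ES line in the direct test.

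Of 12 FGF ligands and receptors 3 rose and 2 fell, against 14.6% and 11.9% of all genes. Without iPS passage 12 the counts were 2 and 1, and without any other of the 4 arrays 1 and 1. Fgf15 fell by 2.87 beside Fgf5. Fgf2, not well above background in EpiSC, read -1.12 and -2.52 in the iPS line and was at least 5.17-fold higher (adjusted p = 0.014). Fgf10 and the receptor Fgfr4 rose by 1.97 and 1.78.

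Canonical WNT signalling stabilises beta-catenin, and Axin2, Sp5, Lef1 and T (Brachyury) are its usual targets. Of 20 targets and antagonists 8 fell and 1 rose, against 11.9% and 14.6% of all genes. The median was -1.30, and it was -1.66 with slide as a block (5 lower) and -1.61 within the shared slide. The counts of lower genes were 7 without iPS passage 7, 5 without iPS passage 12, and 6 without either EpiSC array. Axin2 read -3.32, -4.12, 0.30 and 0.24 and fell by 3.99 (SE 0.51, adjusted p = 0.00034). Sp5 fell by 5.58 and Lef1 by 3.60. Dkk1, a secreted WNT antagonist, read -3.54, -3.48, 1.75 and 1.88 and fell by 5.33. T read 1.66 and 1.63 in EpiSC and was not well above background in the iPS line, at least 44.4-fold lower (adjusted p = 1.1e-05).

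Of 28 WNT ligands and receptors 5 fell and 4 rose, shares near the 11.9% and 14.6% of all genes. The higher count was 1 without iPS passage 12 or with slide as a block, 2 without EpiSC passage 12 and 0 without EpiSC passage 20. The receptors Fzd10, Fzd3 and Fzd9 fell by 3.94, 2.51 and 1.68, Wnt3a was at least 1.94-fold lower, and the receptor Ror2 rose by 1.67. In the BMP pathway 6 of 22 genes fell and 0 rose, against 11.9% and 14.6% of all genes. Its direct targets Id1, Id2 and Id3 fell by 1.39, 1.42 and 1.91, the pseudoreceptor gene Bambi by 2.04 and Smad5 by 0.80. With slide as a block 2 of the 22 were lower, and the count was 5 without iPS passage 7, 1 without iPS passage 12 and 2 without either EpiSC array. In the LIF pathway 2 of 8 rose and 1 fell, with a higher count of 0 without EpiSC passage 20 and of 1 without any other array or with slide as a block. Over all genes 14.6% rose and 11.9% fell. Stat3 rose by 1.39 (4.48, 5.13, 3.37 and 3.47) and Socs2 fell by 2.34. The probe that stands for the LIF receptor Lifr read 3.13, 0.75, -2.50 and -4.72, a rise of 5.55 (SE 1.37, adjusted p = 0.014), and differences of its 5 probes ran from 0.08 to 5.55.

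**Figure D3:**
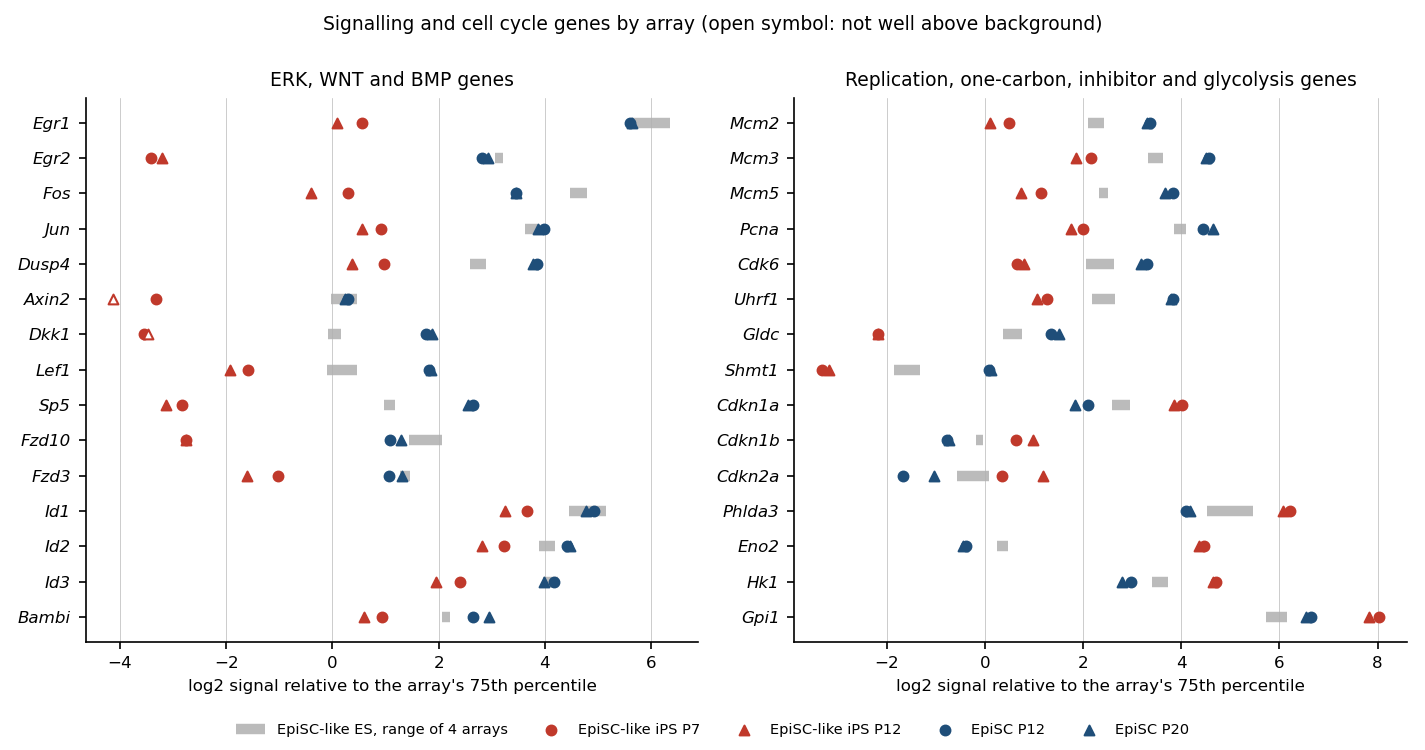
Symbols and x axis are as in the plot of pluripotency genes, here for ERK, WNT and BMP genes (left) and for replication, one-carbon, cell cycle inhibitor and glycolysis genes (right). The iPS arrays lie left of EpiSC for Egr1, Axin2 and Mcm2 and right of EpiSC for Cdkn1a and Eno2, and for Egr1 the grey bar of the EpiSC-like ES line lies at 5.63 to 6.37, beside EpiSC.

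Macrophages are phagocytes that carry lysozyme, Fc-receptor adaptors and complement. All 12 markers of the macrophage list rose, against 14.6% of all genes, with a median of 5.47, of 5.28 with slide as a block and of 5.25 within the shared slide. The number well above background was 12 and 12 on the iPS arrays and 5 and 9 on the EpiSC arrays. The summed linear signal of the list, in units of the array's 75th percentile, was 302 and 246 in the iPS line against 1.53 and 1.26 in EpiSC. The call count was 12 of 12 in each analysis that left out 1 array, except for 11 without EpiSC passage 20.

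Lyz2, a lysozyme gene of macrophages, read 7.74, 7.48, -2.14 and -2.06, a difference of 9.71 (SE 1.26, limma adjusted p = 0.00037). Lyz1, its neighbour gene, read 5.57, 5.19, -4.76 and -4.48 (adjusted p = 0.00038). The iPS arrays lay over 9 log2 units above the EpiSC arrays for both. Adgre1, a macrophage surface antigen, read 2.43, 1.89, -3.94 and -4.77 and rose by 6.51 (SE 0.48, adjusted p = 1.3e-05). A second Adgre1 probe differed by 2.27. The signalling adaptor Tyrobp and the mannose receptor Mrc1 were not well above background in EpiSC and were at least 110-fold and 62.5-fold higher in the iPS line (adjusted p = 5.7e-05 and 0.00019). The other 7 markers rose as well.

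Of the 12 genes that rose most, 9 were not well above background on either EpiSC array, so their folds are lower bounds. The bound sets the bright group's mean against the lowest signal well above background on each dim array. Pf4, a chemokine of platelets and macrophages, read 4.66 and 4.42 in the iPS line and was at least 423-fold higher (adjusted p = 0.00011). Gkn2, a stomach secreted protein, read 3.91 and 3.45 and was at least 234-fold higher (adjusted p = 3.4e-06). By their brightest probes the surface receptor genes Cd300lf and Pirb were at least 129-fold and 70.3-fold higher, while a second Cd300lf probe differed by 2.72. The chemokine gene Ccl6 was at least 117-fold higher, the clotting factor gene F13a1 at least 83.5-fold and the complement gene C1qc at least 78.0-fold. Ctss, a lysosomal protease, read 4.88, 4.28, -4.45 and -4.62 and rose by 9.11.

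Most of these genes were also present in the EpiSC-like ES line, at lower levels. Its 4 arrays read 0.01 to 0.56 for Pf4, 1.75 to 1.97 for Ctss and -1.99 to -1.62 for Cd300lf, each below the iPS line, and 6.63 to 7.07 for Lyz2 and 3.48 to 3.96 for Gkn2. In the direct test 7 of the 12 macrophage markers were higher in the iPS line than in the ES line, with a median difference of 2.03. Against EpiSC 11 of the 12 were higher in the ES line, with a median of 3.81. Of 8 lysozyme and gastrokine genes 5 rose, against 14.6% of all genes. Among these were the trefoil factor genes Tff1, by 1.52, and Tff2, at least 1.79-fold higher. The count was 5 without iPS passage 7 and 3 without any other of the 4 arrays.

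**Figure D4:**
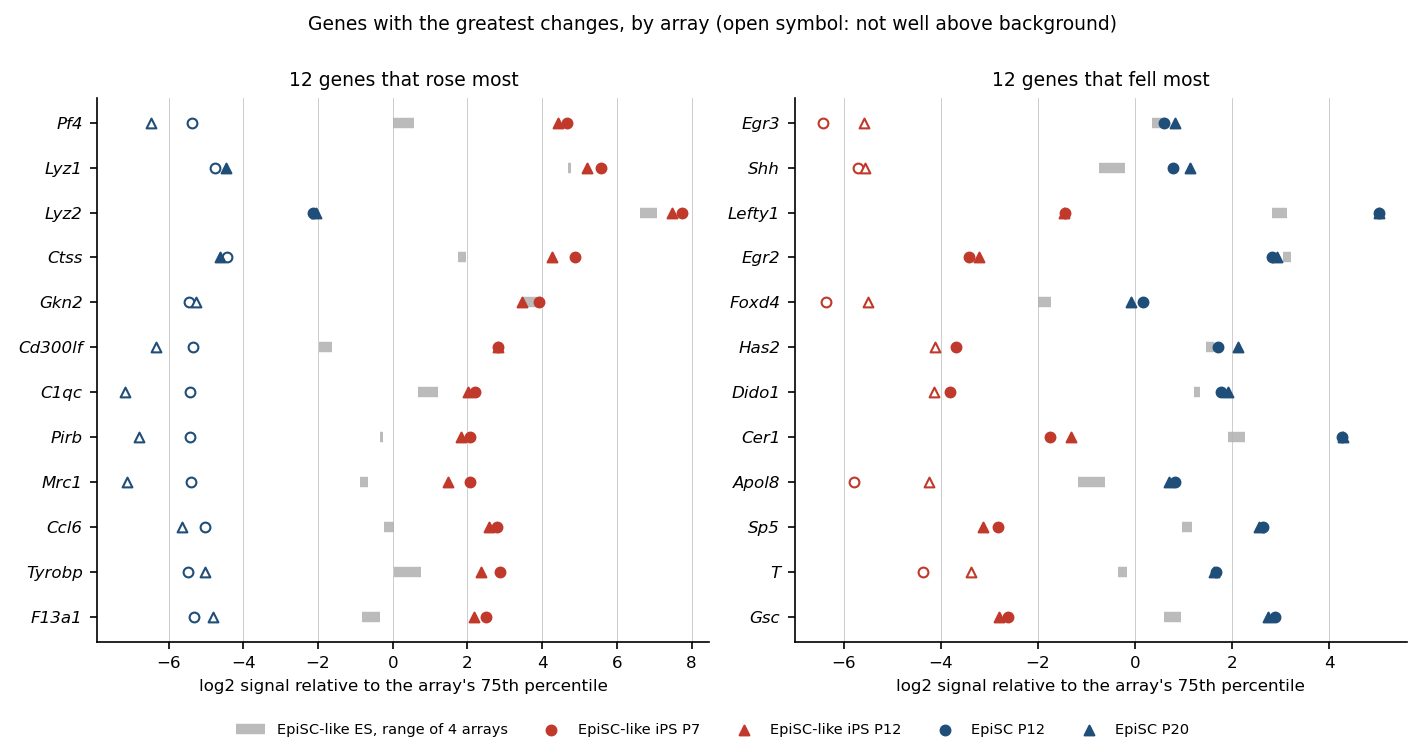
Symbols and x axis are as in the plot of pluripotency genes, here for the 12 genes with the greatest rise (left) and the 12 with the greatest fall (right). Most EpiSC symbols on the left and several iPS symbols on the right are open, which marks spots not well above background, and the grey bars of the EpiSC-like ES line lie nearer the iPS line for Gkn2 and Lyz2 and nearer EpiSC for Egr2 and Has2.

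The promoters of these genes were searched for the letters GAGGAAG, the core of a site for PU.1, the ETS factor of macrophages, on both strands of RefSeq windows from 250 bases before to 50 bases after the start site (GRCm38.p6). Of the 20 genes that are macrophage markers or among the 12 that rose most, 16 had a window and 8 of these a match. A match was found for 15.4% of all 27025 genes and in 13.6% of all 32851 windows. The motif was chosen after the values were seen, and a match is a description of the letters. The windows of 3 of these 8 genes are shown as examples, with matches in capitals, which read CTTCCTC where the match is on the opposite strand. C1qc lies at chr4:136892865-136893164 (minus strand), Pf4 at chr5:90772185-90772484 and Mrc1 at chr2:14229164-14229463 (both plus strand).
C1qc: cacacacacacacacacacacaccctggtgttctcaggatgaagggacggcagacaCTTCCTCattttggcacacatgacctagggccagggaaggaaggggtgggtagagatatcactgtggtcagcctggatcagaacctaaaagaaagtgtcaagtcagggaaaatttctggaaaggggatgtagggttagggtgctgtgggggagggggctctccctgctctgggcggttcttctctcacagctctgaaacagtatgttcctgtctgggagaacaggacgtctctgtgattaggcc
Pf4: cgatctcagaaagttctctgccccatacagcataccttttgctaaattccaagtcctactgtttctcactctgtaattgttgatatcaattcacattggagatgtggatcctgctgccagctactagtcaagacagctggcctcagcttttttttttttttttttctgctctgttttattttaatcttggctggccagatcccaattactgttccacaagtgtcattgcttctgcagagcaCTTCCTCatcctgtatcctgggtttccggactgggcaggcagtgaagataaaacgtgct
Mrc1: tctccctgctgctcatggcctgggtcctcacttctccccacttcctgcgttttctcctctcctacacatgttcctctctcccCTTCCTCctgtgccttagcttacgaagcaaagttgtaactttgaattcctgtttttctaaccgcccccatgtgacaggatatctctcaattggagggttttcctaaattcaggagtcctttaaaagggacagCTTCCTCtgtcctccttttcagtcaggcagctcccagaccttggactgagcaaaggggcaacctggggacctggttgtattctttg

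The genes that fell most included Egr3 (-6.44, -5.58, 0.60 and 0.82), whose iPS spots were not well above background and whose second probe differed by 0.50. Shh, the hedgehog ligand of notochord and floor plate, read 0.78 and 1.14 in EpiSC and was at least 28.4-fold lower in the iPS line (adjusted p = 0.0013). Foxd4, a forkhead gene, was at least 15.0-fold lower (adjusted p = 0.0020). The hyaluronan synthase gene Has2 fell by 5.83 (-3.69, -4.13, 1.72 and 2.12), and Dido1 by 5.83 by its brightest probe, while other Dido1 probes differed by up to 0.70. Apol8 had a second probe at 0.38. Lefty1, Egr2, Cer1, Sp5, Gsc and T made up the rest. All 12 passed as lower in the iPS line than in the EpiSC-like ES line in the direct test, which uses the same iPS arrays that chose them, so that direction was favoured by the choice.

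**Figure D5:**
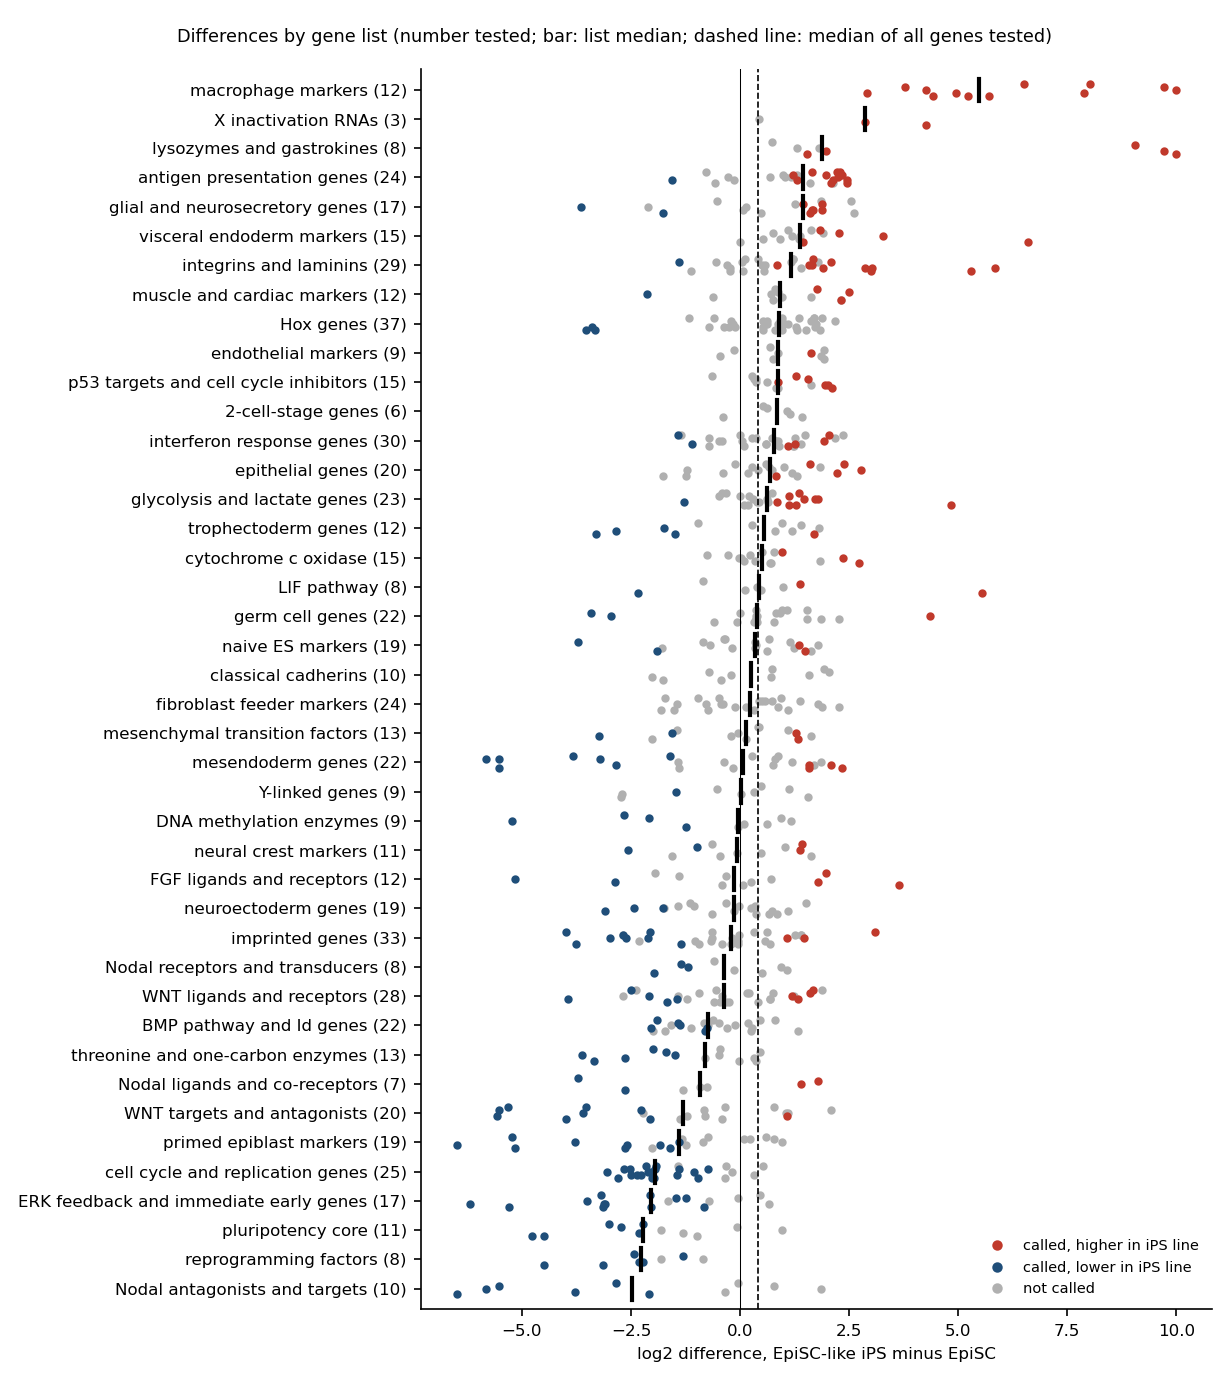
Each point is a gene, placed by its log2 difference between the iPS line and EpiSC (x axis) in the row of its list, with the number of tested genes in parentheses. Black bars mark list medians, from -2.47 for Nodal antagonists and targets to 5.47 for macrophage markers, and the dashed line marks the median of all genes, 0.40.

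Lineage markers other than macrophage genes moved in smaller numbers. Of 22 mesendoderm genes 7 fell and 4 rose, against 11.9% and 14.6% of all genes, with a median of 0.06. The higher count was 3 without iPS passage 7, 2 without EpiSC passage 12 and 1 without either of the others. Beside Cer1, Gsc and T, the organiser and endoderm factors Hhex and Lhx1 fell by 3.82 and 3.21. Of 15 visceral endoderm markers 5 rose and 0 fell, against 14.6% and 11.9% of all genes, with a median of 1.36. Afp, the alpha-fetoprotein of yolk sac endoderm, read 2.49, 2.30, -4.49 and -3.90, a difference of 6.59 (SE 1.02, limma adjusted p = 0.0011). Transferrin (Trf), retinol-binding protein (Rbp4), Dab2 and Apom rose by 3.28, 2.26, 1.84 and 1.45. The count of higher genes in that list was 3 without iPS passage 12 or either EpiSC array and 3 with slide as a block, and 2 under quantile normalization. Afp differed between the iPS and the ES line by 5.11 (adjusted p = 0.0019).

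Of 19 neuroectoderm genes 3 fell and 0 rose, against 11.9% and 14.6% of all genes. These 3 were Pax6, lower by 3.09, Lhx2 by 2.43 and Hes5 by 1.76. A second Pax6 probe differed by close to 0. Among 17 glial and neurosecretory genes 6 rose and 2 fell, against 14.6% and 11.9% of all genes, so the lower share is near that of all genes. Fabp7 was down by 1.76, and Sparcl1 and Snap25 were each up by 1.88. The 6 higher calls became 1 without either iPS array and 0 without either EpiSC array. In the neural crest list 2 of 11 rose (Mitf by 1.42, Tfap2a by 1.36), against 14.6% of all genes. In the same list 2 fell, against 11.9% of all genes, the neurotrophin receptor Ngfr by 2.58 and Erbb3 by 0.98. The 5 Erbb3 probes ran from -0.98 to 1.63, and their mean differed by 0.80. The higher count in that list was 0 without iPS passage 12 or EpiSC passage 12 and 1 without EpiSC passage 20, and the lower count was 1 without any 1 array. Of 37 Hox genes 0 rose and 3 fell, a share below the 11.9% of all genes. Hoxa2 and Hoxb1 were at least 5.16-fold and 2.42-fold lower. The count of lower Hox genes was 1 without any 1 of the 4 arrays.

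Of 12 trophectoderm genes 4 fell and 1 rose, against 11.9% and 14.6% of all genes. Cdx2 was at least 2.35-fold lower, Tfap2c fell by 1.75, and Tead4 rose by 1.69. Of 12 muscle and cardiac markers 3 rose and 1 fell, against 14.6% and 11.9% of all genes. The atrial myosin gene Myl7 read 3.69, 3.74, 1.24 and 1.19 and rose by 2.50, and desmin (Des) fell by 2.14. Of 9 endothelial markers 1 rose, endoglin (Eng) by 1.63, a share below the 14.6% of all genes. The muscle list had 1 higher gene, and the trophectoderm list 2 or 3 lower genes, without any 1 of the 4 arrays.

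Fibroblast markers, which would come with feeder cells, were present in both groups and differed in both directions. The groups did not overlap for 11 of 24 markers with the iPS line higher and for 10 with it lower. Over all genes these shares were 47.5% and 28.9%, so the higher share is near that of all genes. The summed linear signal of the markers was 838 and 890 in the iPS line against 534 and 483 in EpiSC. Of 24 markers 0 rose and 0 fell in the limma fit over all arrays, with a median difference of 0.23. At an unadjusted p under 0.05 1 were higher and 2 lower, against 5844 and 3777 of all 23192 genes. In the fit of the 4 arrays alone 6 rose and 5 fell, against 4000 and 2914 of all genes. In the fit without 1 NOD ES and 1 EpiSC iPS array that earlier work found nearer to another group, 8 rose and 9 fell. That fit called 7126 of all 23192 genes higher and 5002 lower. Between 23 and 24 of the 24 were well above background on each array, and their median level was 2.45, 2.71, 2.80 and 2.81, against -2.24 and -1.90 in the 129 ES cells labelled mESM. Thy1 read 6.88, 6.93, 4.78 and 4.51 and S100a4 7.91, 7.86, 6.00 and 6.03, with groups that did not overlap and differences of 2.26 and 1.87 that did not pass (adjusted p = 0.097 and 0.16). Col5a2 and Fap differed by -1.72 and -1.81. The part of feeder RNA in the other differences was not tested.

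Part of the basement membrane genes rose. Of 29 integrin, laminin and type IV collagen genes 11 rose and 1 fell, against 14.6% and 11.9% of all genes. The median was 1.16, and it was 1.15 with slide as a block (5 higher) and 1.13 within the shared slide. The count of higher genes was 5 without iPS passage 7, 7 without iPS passage 12, 6 without EpiSC passage 12 and 4 without EpiSC passage 20. Lama1, the laminin chain of embryonic basement membranes, read 4.35, 3.36, -1.88 and -2.11 and rose by 5.85 (SE 0.34, adjusted p = 3.4e-06). Lamb1 rose by 2.87 and the collagen genes Col4a1 and Col4a2 by 3.00 and 3.03. The collagen-binding integrin Itga1 rose by 5.30 by its brightest probe, while its 4 probes ranged from -1.11 to 5.30.

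Of 20 epithelial genes 5 rose and 0 fell, against 14.6% and 11.9% of all genes. St14, a membrane protease, read 1.75, 1.60, -1.12 and -1.06 and rose by 2.76, the small GTPase gene Rab25 by 2.38, the protease inhibitor gene Spint2 by 2.23, keratin 19 (Krt19) by 1.60 and Cldn7 by 0.82. Without iPS passage 12 or EpiSC passage 20 the count was 3. In the direct test 13 of the 20 were higher in the iPS line than in the EpiSC-like ES line. Of 13 mesenchymal transition factors 2 rose and 2 fell, shares near the 14.6% and 11.9% of all genes. Snai1 rose by 1.34 and fibronectin (Fn1) by 1.29, while Foxc1 fell by 3.23 and Zeb1 by 1.55. The higher count was 0 without any 1 of the 4 arrays. Of 10 classical cadherins 0 passed limma's test. At an unadjusted p under 0.05 2 were higher and 3 lower, against 5844 and 3777 of all 23192 genes. In the fit of the 4 arrays alone 3 were higher and 2 lower, against 4000 and 2914 of all genes. E-cadherin (Cdh1) read 0.88, 0.39, 2.39 and 2.43, a difference of -1.78 (adjusted p = 0.079).

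Part of the antigen presentation genes rose, among them class I genes of the major histocompatibility complex, which differ in sequence between NOD and other strains. Of 24 tested 12 rose and 1 fell, against 14.6% and 11.9% of all genes. The median was 1.45, and it was 1.35 with slide as a block (2 higher) and 1.30 within the shared slide. The count of higher genes was 6 without either iPS array, 4 without EpiSC passage 12 and 3 without EpiSC passage 20. H2-D1 read 4.67, 4.36, 2.30 and 2.24 and rose by 2.25 (SE 0.37, adjusted p = 0.0015), with its second probe at 0.92. H2-K1 rose by 2.44, with 3 probes from 0.067 to 2.44, and H2-Q7, H2-Q2 and H2-M3 by 2.45, 2.28 and 2.34. Class I genes are near copies of each other, so their probes may share signal. Of 30 interferon response genes 4 rose and 2 fell, with Irf7 and Stat2 up by 2.05 and 1.25 and Gbp2 down by 1.41. The higher share is near the 14.6% of all genes. The higher count was 3 without iPS passage 7, 2 without EpiSC passage 12 and 1 without either of the others, and the lower count was 0 without any 1 of the 4 arrays. The 12 macrophage markers rose on the same arrays, at a summed signal of 302 and 246 against 1.53 and 1.26, and their part in these counts was not tested.

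Most genes of DNA replication and the cell cycle fell. Of 25 tested 19 fell and 0 rose, against 11.9% of all genes lower, with a median of -1.94, of -1.66 with slide as a block (13 lower) and of -1.59 within the shared slide. Mcm2, a subunit of the replicative helicase, read 0.50, 0.10, 3.37 and 3.31, a difference of -3.04 (SE 0.38, limma adjusted p = 0.00033). Mcm5 and Mcm3, subunits of the same ring, fell by 2.81 and 2.53, and Pcna, the sliding clamp of the polymerases, by 2.67 (2.01, 1.74, 4.44 and 4.65). The G1 kinase gene Cdk6 fell by 2.51, with a further probe at 0.85. In the EpiSC-like ES line 10 of the 25 were lower than in EpiSC, and 14 were lower in the iPS line than in the ES line.

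E2F factors drive many replication genes at the start of S phase. The letters TTTGGCGC, TTTCCCGC, TTTGCCGC and TTTCGCGC were searched on both strands of the same RefSeq windows. Of the 19 genes that fell, 17 had a window and 7 of these a match, against 2.6% of all genes and 2.26% of all windows. The list holds replication and cell cycle genes, so a share above that of all genes was favoured by its choice. The motif was chosen after the values were seen, and genes of the list that did not fall were not compared. A match is a description of the letters and was not tested as a cause. The windows of Mcm3 (chr1:20820263-20820562, minus strand) and Mcm5 (chr8:75109259-75109558, plus strand) are shown, with matches in capitals. In Mcm5 a match on each strand overlaps the other, and in Mcm3 both matches lie after the start site.
Mcm3: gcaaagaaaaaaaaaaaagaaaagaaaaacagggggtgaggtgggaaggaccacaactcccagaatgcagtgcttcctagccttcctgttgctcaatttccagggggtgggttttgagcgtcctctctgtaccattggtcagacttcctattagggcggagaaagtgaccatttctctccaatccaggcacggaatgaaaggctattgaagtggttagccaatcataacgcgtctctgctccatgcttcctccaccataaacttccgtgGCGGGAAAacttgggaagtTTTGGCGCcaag
Mcm5: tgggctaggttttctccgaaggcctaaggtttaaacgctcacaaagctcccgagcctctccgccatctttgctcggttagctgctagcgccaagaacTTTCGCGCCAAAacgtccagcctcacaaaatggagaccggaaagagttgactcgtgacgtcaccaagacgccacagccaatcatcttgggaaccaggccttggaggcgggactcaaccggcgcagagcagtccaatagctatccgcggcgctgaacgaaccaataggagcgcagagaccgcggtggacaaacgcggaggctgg

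Some inhibitors of the cell cycle and p53 targets were higher, in a number that moved with the scaling. Of 15 tested 6 rose and 0 fell, against 14.6% and 11.9% of all genes. With quantile normalization 4 rose and with median centring 2. The median was 0.87, against 0.40 for all genes. It was 0.83 with slide as a block (2 higher), 0.84 within the shared slide and 0.44 with median centring. The count was 3 without iPS passage 7 or EpiSC passage 12 and 2 without either of the other arrays. Cdkn2a, the locus of p16 and p19ARF, read 0.35, 1.18, -1.66 and -1.03 and rose by 2.11 (SE 0.39, adjusted p = 0.0029). Cdkn1a (p21) read 4.01, 3.85, 2.10 and 1.84 and rose by 1.96. Cdkn1b (p27), Phlda3 and Aen rose by 1.55, 2.01 and 1.29.

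Counts of metabolic genes differed by list, and no test compared the lists. Of 13 threonine and one-carbon enzymes 6 fell and 0 rose, against 11.9% and 14.6% of all genes. The glycine decarboxylase gene Gldc read -2.18, -2.18, 1.36 and 1.52 and fell by 3.62 (SE 0.22, limma adjusted p = 4.1e-06). Shmt1 fell by 3.35, with a second probe at 0.25, and Gcat and Gcsh by 2.64 and 1.70. Of 23 glycolysis and lactate genes 9 rose and 1 fell, against 14.6% and 11.9% of all genes. Their median of 0.63 lies near the 0.40 of all genes. In the deposited value table the list's median was -0.09, against 0.06 for all genes. With median centring 1 rose, and the counts were 5 without iPS passage 7 and 3 without any 1 of the other arrays. Eno2, the neuronal enolase, read 4.47, 4.37, -0.38 and -0.44 and rose by 4.83 (SE 0.63, adjusted p = 0.00038). Hk1, Pfkp, Pfkfb3 and Gpi1 rose by 1.78, 1.73, 1.47 and 1.35. Of 15 cytochrome c oxidase genes 3 rose, against 14.6% of all genes. The muscle isoform Cox6a2 rose by 2.72, the testis isoform Cox6b2 by 2.36 and Cox6a1 by 0.97.

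Xist, the RNA that coats the inactive X chromosome, read 1.33, 1.36, -3.03 and -2.80 and rose by 4.27 (SE 0.76, limma adjusted p = 0.0023), with its 4 probes at 1.38 to 4.30. Its antisense partner Tsix was not well above background in EpiSC and was at least 1.83-fold higher in the iPS line. Whether the probes of this overlapping pair keep them apart was not tested. Ftx differed by 0.43. Of 9 Y-linked genes 1 fell, Kdm5d by 1.47, a share near the 11.9% of all genes, and the count was 0 without any 1 of the 4 arrays. Eif2s3y read -0.66, -0.99, 1.81 and 1.95, with groups that did not overlap and a difference of -2.70 that did not pass (adjusted p = 0.20), and Ddx3y differed by -2.72. Both were well above background on all 4 arrays, against means of -6.75 and -5.86 in the 129 ES cells labelled mESM. The NOD ES arrays, whose spread the SE pools, ran from -4.74 to 1.39 for Eif2s3y and from -4.40 to 0.97 for Ddx3y. In the fit of the 4 arrays alone 3 of the 9 Y-linked genes were lower and 1 higher, against 2914 and 4000 of all 23192 genes. Without 1 NOD ES and 1 EpiSC iPS array 3 were lower and 0 higher, against 5002 and 7126 of all 23192 genes. Usp9y, Sry and Uba1y were not well above background on any of the 4 arrays, and Uty, Zfy1 and Zfy2 differed by -0.54, 0.49 and 1.57.

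Of 33 imprinted genes 8 fell and 3 rose, against 11.9% and 14.6% of all genes. Peg12 read -2.01, -1.34, 2.31 and 2.34 and fell by 4.00 (SE 0.25, adjusted p = 5.3e-06), Nnat by 3.75, Asb4 by 2.99 and Slc38a4 by 2.68, while Usp29 rose by 3.09. Of 9 DNA methylation enzymes 4 fell, against 11.9% of all genes. Beside Dnmt3b these were the maintenance factors Uhrf1, by 2.65, and Dnmt1, by 1.23, and the dioxygenase gene Tet3, by 2.08. A Tet3 probe differed by 1.16 the other way. Of 22 germ cell genes 1 rose and 2 fell, shares below the 14.6% and 11.9% of all genes. In this list 13 were not well above background on any of the 4 arrays. The homeobox gene Rhox5 read 3.72, 3.73, -0.82 and -0.43 and rose by 4.34, while Prdm1 and Tex19.1 were at least 4.26-fold and 6.28-fold lower. Of 6 genes of the 2-cell stage 0 passed limma's test, with 0 at an unadjusted p under 0.05 and 0 in the fit of the 4 arrays alone.

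The difference between the iPS line and the EpiSC-like ES line was tested directly in the same fit. It called 3210 genes (13.8%) higher and 2727 (11.8%) lower in the iPS line. Against EpiSC, the ES line had 1165 genes (5.02%) higher and 984 (4.24%) lower. Both comparisons with EpiSC share the EpiSC arrays, so their values are given side by side. The median of the ERK list was -2.04 in the iPS line and 0.07 in the ES line, that of WNT targets -1.30 and -0.07, of the primed markers -1.40 and -0.99, of the pluripotency core -2.22 and -1.31, and of the epithelial genes 0.69 and -1.13. In the direct test 12 of 17 ERK genes, 11 of 20 WNT targets, 6 of 19 primed markers and 4 of 11 core genes were lower in the iPS line. Pou5f1 differed between the lines by -2.74 (adjusted p = 0.013) and Sox2, which read 2.10 to 2.52 in the ES line, by -2.24 (adjusted p = 0.018), while Nanog (-0.06) and Lin28a (-0.15) did not pass.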

How the data were processed

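Gene expression was measured on 16 one-colour Agilent arrays (design 014868). Spot intensity was extracted and background-subtracted by the authors with Feature Extraction 10.1.1.1, per the file headers, whose grid names build mm7. The deposited value table holds log2 values that rank spots as the mean spot signal does and have a column median of 6.93 on every array, as quantile normalization by the authors would give. The submitters' processing notes name limma. From the deposited processed intensity, log2 values were set relative to each array's 75th percentile and duplicate spots averaged. Probes well above background on at least 2 arrays were kept, and the probe with the highest mean stood for its gene. All 16 arrays in 7 groups were fitted with limma 3.58.1 in R 4.3.3, with Benjamini-Hochberg adjustment over 23192 genes. The precision is limited by the 2 arrays of each compared group. The scripts were tested on simulated data.

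The members, the 42 gene lists and the rule for named genes were chosen with earlier results of these data known. The rule names every measured gene of the pluripotency, Nodal, X and Y lists, up to 5 genes of each other list by call and size, and the 12 genes that changed most in each direction. Median centring, local background subtraction and the filter on all 4 arrays were added after seeing the data, as was the motif search. Alternatives are given in the closing section. Single genes of some lists are not reported here.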

Additional observations from a re-analysis of the deposited data

Results flagged for a closer look

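The values here are log2 differences between the iPS line and the EpiSC-like ES line, for genes among the 12 that moved most against EpiSC in each direction whose difference also passed limma's direct test between the lines. Both lines were set against the same EpiSC arrays, so the direct test is also the test of whether their differences from EpiSC differ. The genes were chosen on the same iPS arrays that enter this test, which favours the direction of the choice, so the counts are descriptions.

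Of the 12 genes that rose most, 8 were higher in the iPS line than in the ES line. Cd300lf differed by 4.64, Pf4 by 4.38, F13a1 by 2.96, Ccl6 by 2.78, Ctss by 2.72, Mrc1 by 2.58, Pirb by 2.25 and Tyrobp by 2.21. Lyz1 (0.64), Lyz2 (0.71), Gkn2 (-0.01) and C1qc (1.08) did not pass.

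The 12 genes that fell most were lower in the iPS line than in the ES line as well. Egr3, Shh, Foxd4, Apol8 and T were not well above background on either iPS array, so their fitted values are no exact sizes and have no order. The early response genes Egr3 and Egr2 differed by -6.48 and -6.41, Has2 by -5.45, Dido1 by -5.27 and Shh by -5.23. The Nodal antagonist genes Lefty1 and Cer1 differed by -4.41 and -3.60. Apol8 differed by -4.07, Foxd4 by -4.06, Sp5 by -4.02, T by -3.62 and Gsc by -3.49. Against EpiSC, further probes of Egr3 and Apol8 differed by 0.50 and 0.38, and of Dido1 by up to 0.70. For these genes the fall thus rests on the probe that stands for the gene.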

How the results depend on the processing

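The count of 6141 called genes (3385 higher, 2756 lower) ran from 2471 to 5523 when 1 of the 4 arrays was left out, with 1163 to 3287 higher and 1299 to 2236 lower. With slide as a fixed block 3016 were called (1601 higher, 1415 lower), and without 1 NOD ES and 1 EpiSC iPS array that earlier work found nearer to another group, 12128 (7126 and 5002). Local background subtraction called 11574 genes, 8822 of them higher, and normexp 13322, 9760 of them higher. The normexp fit lifted the first percentile of iPS passage 7 from 21.8 to 2446, so single genes and lists are not given under either correction. Median centring called 1345 genes higher. Among 250 named genes, Klf2 became -0.89 and Erbb3 0.80 with the mean over probes, and Dido1 became 0.46 with probes well above background on all 4 arrays, where another probe stands for it. Of the 171 called named genes, 62 lost their call with slide as a block, 30 with median centring, 22 with quantile normalization and 17 in the deposited value table, and none changed direction under these. No paired analysis was possible because the labels give the groups no shared replicate numbers beyond a passage number, which ties no array of one group to an array of the other. Genes near background have the least certain differences. The iPS arrays were dimmer in processed signal, but on the relative scale dim genes ran higher there. The median difference was 0.40 over all genes and 0.15 over those well above background on all 4 arrays.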

Other observations

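Genes of chromosome 7, as placed by the array files, were shifted upward in the iPS line. Of 1806 tested, 18.5% were higher and 8.08% lower, against 14.6% and 11.9% of all genes. Over the 1169 well above background on all 4 arrays, their median lay 0.30 above that of all such genes, with 0.12 to 0.46 over the 4 pairs of arrays and 0.12 within the shared slide. Between the iPS line and the EpiSC-like ES line the shift was 0.28, and between the ES line and EpiSC it was 0.04. Chromosome 7 was not alone. Between the iPS line and EpiSC chromosomes 18, 13, 10 and X were shifted downward, by -0.25, -0.25, -0.22 and -0.21. Within the shared slide chromosomes 10 and 13 were shifted by -0.20 and -0.18, further than chromosome 7. These values were chosen after all chromosomes had been seen, and no test was made of them.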
